A study of Mus musculus with 10 samples.

Results

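The histone modification H3K4me2, dimethylated lysine 4 of histone H3 found at promoters and enhancers, was examined at 10 mouse genes that encode transcription factors of innate lymphoid development: Id2, Id3, Tcf3, Tcf12, Nfil3, Zbtb16, Tox, Gfi1, Bcl11b and Ets1. A deposited peak belonged to one of them when the nearest RefSeq protein-coding gene within 100 kb (mm10 coordinates) was that gene. This rule took 326 of the 152121 peaks in the 8 H3K4me2 peak lists, between 34 and 45 in each list. Peaks of different libraries that lay within 500 bp of each other were merged into regions, which gave 68 regions at these genes among 30062 in all. Of the 68 regions, 43 overlapped the gene itself and 25 lay outside it, and exons, introns and untranslated regions were not told apart.

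Innate lymphoid cells arise from the same lymphoid precursors as T and B cells but carry no rearranged antigen receptor. In these precursors the E proteins, basic helix-loop-helix factors that include Tcf3 and Tcf12, bind short E-box sequences and drive T and B cell programmes, while Id2 and Id3 pair with E proteins and keep them off DNA. Genetic work in mice has placed Nfil3, Tox, Id2, Zbtb16, Gfi1, Bcl11b and Ets1 on the path to innate lymphoid cells, and Bcl11b and Ets1 on the T cell path as well.

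All libraries came from lymphocytes sorted from Gata3-YFP/YFP reporter mice with airway inflammation, by antibodies and the reporter, and were made with a Nextera transposase protocol. Group 2 innate lymphoid cells (ILC2s), T helper 2 (Th2) cells and cells labelled naive T each gave 2 libraries, from bronchoalveolar lavage and from the mediastinal lymph node, and CD4+ lymphocytes were taken from spleen and thymus for 1 library each. ILC2s were set against the 5 T cell libraries (Th2, naive T and spleen CD4+) and against the thymus library. The labels give no age or sex, no sort gate for naive T cells, no induction agent for the inflammation and no statement that libraries came from separate animals, so p-values measure only the spread between these samples. Wherever a cell type has a pair of values below, the lavage value precedes the lymph node value.

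The libraries held between 11870820 and 24945548 tags, with 28.7% to 53.7% of tags in peaks by the authors' estimate, and the Th2 libraries were lowest in both. Peak height is the deposited normalized tag count, scaled by the authors to 10000000 tags per library and summed over a library's peaks in a region. The authors' tag minimum corresponds to 39.9 to 40.4 tags per 10000000 and the lowest listed heights were 34.5 to 36.6. A library without a peak in a region did not pass the authors' criteria there, which does not mean that it had no signal. Of 10 T cell marker genes, Themis, Cd4 and Cd6 had no peak in ILC2s, and the summed height of the list was 1668 and 1802 tags in ILC2s, against 13858 to 21731 in the T cell libraries and 20786 in thymus. Cd3g of that list had 65.7 and 66.6 tags in ILC2s and no peak assigned to it in T cells or thymus. Each peak was assigned to a single gene, so a peak that reaches a neighbouring gene is not counted there. A gene without an assigned peak can therefore still carry the mark. Of 8 ILC2 marker genes, 7 had peaks in both ILC2 libraries, with sums of 22734 and 24018 tags in ILC2s against 3481 to 10323 in T cells and 2703 in thymus. Il17rb had none assigned to it in any library. Icos of that list was lower in ILC2s (2321 and 1947 tags) than in Th2 cells (3281 and 2877) and lavage naive T cells (3890). Among 5 thymocyte markers, Rag1, Ptcra and Cd8a had peaks in the thymus list alone, and the list summed to at most 117 tags in ILC2s and 195 in T cells, against 10238 in thymus. Rag2 of that list had 112.2 and 116.9 tags in ILC2s, 90.6 in lymph node naive T cells and 44.3 in spleen. No peak was assigned to it in thymus, where Rag1 had 2284 tags. B cell markers summed to 400.1 and 292.1 tags in ILC2s, 0 to 290.9 in T cells and 358.3 in thymus, with Cd79a and Ms4a1 without a peak throughout. Macrophage and neutrophil markers summed to 154.3 and 198 tags in ILC2s, 0 to 563.1 in T cells and 431.8 in thymus, with Csf1r, Lyz2 and Cd68 without a peak throughout. Natural killer cell markers summed to 1110 and 976.2 tags in ILC2s, 394.5 to 2046 in T cells and 1622 in thymus, with Ncr1 without a peak throughout.

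The lavage naive T library stood apart from its lymph node partner. It had 282.1 tags at Il1rl1 and 371.1 at Klrg1, markers of the ILC2 list that had no peak in lymph node naive T cells, spleen or thymus. Th2 cells also had peaks at both, with 2154 and 1553 tags at Il1rl1 and 1204 and 727.1 at Klrg1. Over the 11038 regions called in all 8 lists, the median absolute log2 difference between the 2 libraries of a cell type was 0.12 in ILC2s, 0.19 in Th2 cells and 0.26 in the naive T pair. Results that rest on either naive T library are therefore given with and without it. Leaving either out also takes the naive T pair out of the estimate of spread. The thymus contrast holds no naive T library. A difference from thymus therefore nearly keeps its size whichever is left out, and its adjusted p changes through the spread.

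The promoters of 4 genes are shown because the E protein and Id circuit acts through E-boxes and each window lay under a peak in all 8 lists. Windows of Gfi1, Tcf3 and Nfil3 and a second window of Tcf12 also lay under peaks in all 8 lists and are not printed. Each line gives 250 bases before to 50 after a RefSeq transcription start of GRCm38.p6, 5′ to 3′ on the strand of the gene, with every E-box match (CANNTG, which covers CAGCTG and CAGGTG) in capitals. The table of promoters had an entry for 7 of the 10 genes. The windows are chr12:25096043-25096342 on the minus strand for Id2, chr4:136143572-136143871 on the plus strand for Id3, chr9:72111770-72112069 on the minus strand for Tcf12 and chr12:108003365-108003664 on the minus strand for Bcl11b.
Id2: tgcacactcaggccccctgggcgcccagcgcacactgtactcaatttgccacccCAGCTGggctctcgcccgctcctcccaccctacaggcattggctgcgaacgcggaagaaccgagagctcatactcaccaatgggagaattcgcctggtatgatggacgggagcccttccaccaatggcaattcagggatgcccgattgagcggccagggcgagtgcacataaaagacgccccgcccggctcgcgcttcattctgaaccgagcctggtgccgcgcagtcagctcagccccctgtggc
Id3: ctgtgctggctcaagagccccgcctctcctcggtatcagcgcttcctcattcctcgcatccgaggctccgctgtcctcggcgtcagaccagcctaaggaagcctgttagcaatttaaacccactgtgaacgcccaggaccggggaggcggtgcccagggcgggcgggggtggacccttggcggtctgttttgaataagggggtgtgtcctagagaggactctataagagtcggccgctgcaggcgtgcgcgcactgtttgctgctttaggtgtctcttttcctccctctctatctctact
Tcf12: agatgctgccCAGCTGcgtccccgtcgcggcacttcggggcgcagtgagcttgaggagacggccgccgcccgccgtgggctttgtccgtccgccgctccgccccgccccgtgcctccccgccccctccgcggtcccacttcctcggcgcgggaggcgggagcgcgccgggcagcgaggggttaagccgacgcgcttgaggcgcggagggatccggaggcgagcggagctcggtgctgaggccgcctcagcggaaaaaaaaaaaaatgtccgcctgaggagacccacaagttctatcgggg
Bcl11b: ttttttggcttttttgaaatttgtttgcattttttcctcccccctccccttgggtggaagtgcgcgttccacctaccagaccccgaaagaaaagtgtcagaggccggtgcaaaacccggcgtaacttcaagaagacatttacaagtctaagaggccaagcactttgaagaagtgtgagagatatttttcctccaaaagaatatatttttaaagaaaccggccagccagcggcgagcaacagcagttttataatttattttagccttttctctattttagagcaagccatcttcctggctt
The printed Id2 and Tcf12 windows each held 1 E-box, and in both it was the palindrome CAGCTG, which 16.3% of 32817 RefSeq promoter windows of this length held. The second Tcf12 window (chr9:72111152-72111451), which is not printed, held 2 other E-boxes and no CAGCTG. The Id3 and Bcl11b windows held no CANNTG, a motif found on either strand in 72.3% of windows. The Bcl11b and Tcf12 windows also held 1 GGAAGT, an Ets-type sequence found in 23.8% of windows. None of the 4 windows held AGATAA (11.2% of windows), TGTGGT (16.8%) or CAGGTG (20.2%). A Gfi1 window that is not printed (chr5:107725756-107726055) held 1 CAGGTG.

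Peak numbers separated ILC2s from T cells at 2 of the 10 genes. Id2 had 4 and 5 peaks in ILC2s, against 2 and 2 in Th2 cells, 3 and 2 in the naive T pair, 2 in spleen and 2 in thymus. Ets1 had 4 and 4 peaks in ILC2s, against 7 and 8 in Th2 cells, 7 and 11 in the naive T pair, 11 in spleen and 10 in thymus. Both ILC2 libraries thus lay above all T cell libraries at Id2 and below all of them at Ets1, and each exact two-sided permutation test of 2 against 5 libraries gave p = 0.0952, the smallest value the 21 arrangements allow. Across the 13573 genes with an assigned peak, 10.3% had more peaks in both ILC2 lists than in any T cell list and 1.07% had fewer, so 1 of 10 in the first direction matched the background. Against the thymus library, 4 of the genes had more peaks in both ILC2 libraries (Id2, Nfil3, Zbtb16 and Tox) and 3 had fewer (Id3, Tcf12 and Ets1), where 19.2% and 18.4% of all genes did so. In these bulk libraries, fewer cells that carry the mark and less of the mark per cell cannot be told apart.

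**Figure D1:**
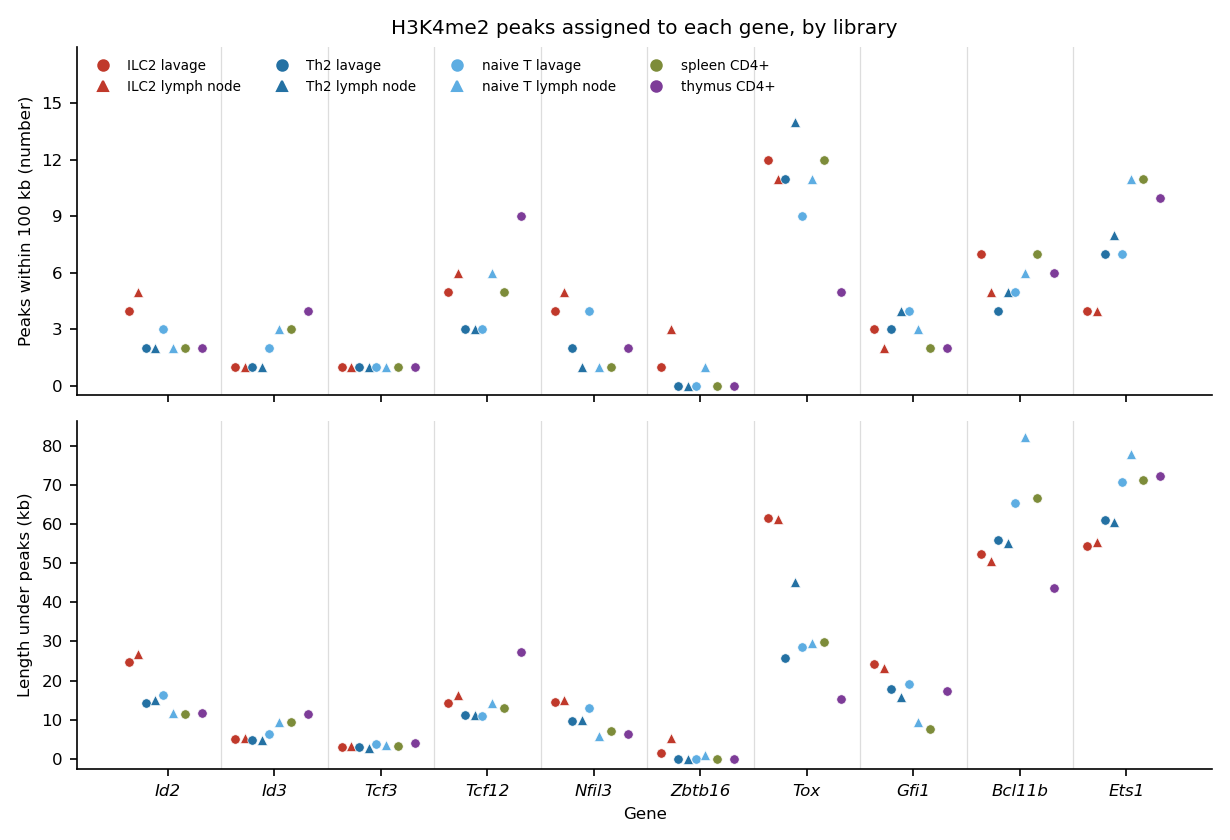
Number of H3K4me2 peaks (upper panel) and length under peaks in kb (lower panel) for each of the 10 genes; each symbol is 1 of the 8 libraries, circles are lavage or single libraries and triangles lymph node libraries. The ILC2 libraries have the most peaks at Id2 (4 and 5) and the fewest at Ets1 (4 each), and at Tox they cover 61.6 and 61.4 kb against at most 45.1 kb elsewhere.

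By presence alone, 8 of the 68 regions had a peak in both ILC2 lists and in none of the 5 T cell lists, and 2 had a peak in all 5 T cell lists and in neither ILC2 list. Of all 30062 regions, 8.97% and 0.685% did so. The 8 ILC2 regions lay at Tox (3), Id2 (2), Tcf12 (2) and Zbtb16 (1), and both T cell regions lay at Ets1. Against thymus, 15 regions were called in both ILC2 lists and not in thymus, 8 of them at Tox, where 17.2% of all regions behaved so. Another 15 were called in thymus and in neither ILC2 list, with 6 at Ets1, 4 at Tcf12, 3 at Id3 and 1 each at Tox and Bcl11b, against 16.6% of all regions.

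Height could be compared in the 16 regions that were called in all 8 lists. Zbtb16 had none. In a limma fit over all 11038 such regions, on log2 height centred on each library's median, 1 of the 16 was higher in ILC2s than in T cells and 1 was lower at an adjusted p under 0.05, against 3.56% and 2.31% of all regions. The median difference of the 16 was 0.19 on the log2 scale, and that of all regions was -0.004. Against thymus, 1 of the 16 was higher and 1 lower, where 7.81% and 2.36% of all regions were, and the medians were 0.37 for the 16 and -0.02 for all. At an unadjusted p under 0.05, 10 of the 16 differed from T cells (6 higher and 4 lower), against 21.1% of all regions, and 11 differed from thymus, against 26.0%. The genes were chosen with earlier results of these data known, so these shares are a description. Centring bears on the thymus comparison, since without it the median of all regions was 0.52 lower in ILC2s than in thymus on the log2 scale, and thymus differences below are relative to that shift. Tag values below are not centred and the tested differences are, so the order of libraries is given on both scales where it differs. As height per kb of peak, 16 of 16 differences from T cells and 15 of 16 from thymus were closer to 0 than those in height. They ran from -0.49 to 0.66 against T cells and from -0.80 to 0.83 against thymus, and 0 and 2 passed in limma.

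Leaving out a naive T library changed how many regions passed. Without the lavage naive T list, 6 of the 16 were higher and 2 lower in ILC2s than in T cells, against 10.4% and 6.03% of all regions. Without the lymph node naive T list, 5 of 17 were higher and 1 lower, against 7.56% and 4.58% of all regions. The distant Id2 region, Tcf12 72096305, Tox 6896513 and both Gfi1 regions were higher in each case. Against thymus, 5 were higher and 3 lower in each case, where without the lavage naive T list 15.2% and 6.07% of all regions were, and without the lymph node list 15.1% and 6.11%. With the lavage or lymph node ILC2 list left out, no call against T cells was left, and very few of all regions passed. A call lost without an ILC2 list, here or at single genes below, therefore does not set a region apart. Tox 6896513 then differed from T cells by 0.64 and 0.56, and Bcl11b 107917981 by -0.79 and -0.86. With the lavage or lymph node Th2 list left out, no such call was left either, and fewer of all regions passed than in the fit of all libraries. Tox 6896513 then differed by 0.59 and 0.61, and Bcl11b 107917981 by -0.82 and -0.84.

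**Figure D2:**
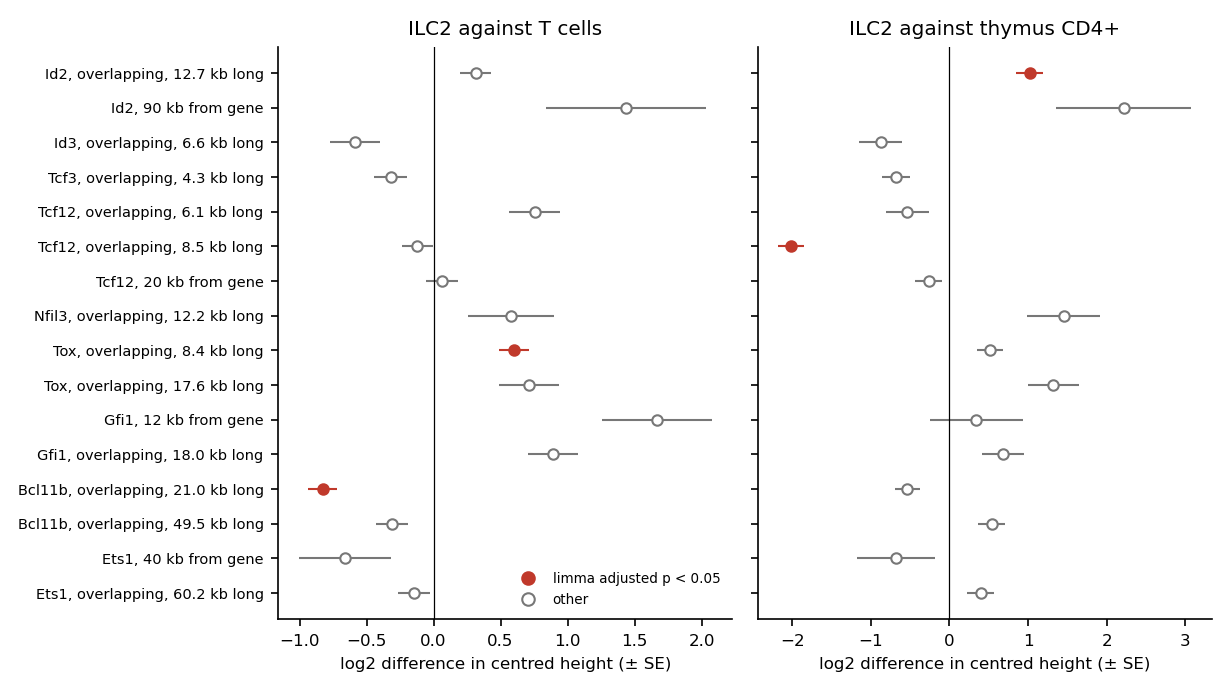
Log2 difference in centred peak height, ILC2s minus the T cell groups (left) and ILC2s minus thymus (right), with its standard error, for the 16 regions called in all 8 lists; filled symbols passed an adjusted p of 0.05 in limma. Both Gfi1 regions, the distant Id2 region and both Tox regions lie to the right of 0 against T cells, and Bcl11b, Id3, Tcf3 and Ets1 to the left.

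Id2 encodes the inhibitor of E proteins that all innate lymphoid cells need. The gene spans chr12:25093799-25096092, on the minus strand. ILC2s had peaks over 24.7 and 26.8 kb assigned to it, against 14.4 and 15.1 kb in Th2 cells, 16.3 and 11.6 kb in the naive T pair, 11.6 kb in spleen and 11.7 kb in thymus, so that both ILC2 libraries lay above every other library. The region over the gene and its promoter (25089700 to 25102378) reached 1162 and 1146 tags in ILC2s, against 797.9 and 764.9 in Th2 cells, 913.2 and 1167 in the naive T pair, 985 in spleen and 806.9 in thymus. Lymph node naive T cells were thus as high as ILC2s there in tags, whereas after centring ILC2s (2.49 and 2.40) lay above every T cell library (2.00 to 2.37). Against T cells this did not pass in limma (log2 difference 0.31, SE 0.12, adjusted p = 0.21). Against thymus the same region was higher in ILC2s, by 1.02 (SE 0.17, limma adjusted p = 0.021). That call was lost without the lavage or the lymph node ILC2 library (adjusted p = 0.15 and 0.13) or the lymph node Th2 library (0.05), and without centring the difference was 0.52 (adjusted p = 0.22).

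Upstream of Id2, in the direction away from transcription, ILC2s had more peaks than T cells. A region 89.7 kb upstream (25185781 to 25192795) had 507.9 and 580.4 tags in ILC2s, against 291.7 and 313.4 in Th2 cells, 384.1 and 105.2 in the naive T pair, 131.9 in spleen and 165.5 in thymus. ILC2s were above every other library, and Th2 cells and lavage naive T cells were above lymph node naive T cells, spleen and thymus. Its mean height in ILC2s was 2.22 times that in T cells, but the naive T pair differed widely and the log2 difference of 1.44 (SE 0.60) had a limma adjusted p of 0.25. Without the lavage naive T library it was 1.83 (SE 0.10, adjusted p = 0.0023), and without the lymph node one 1.05 (SE 0.10, adjusted p = 0.0075). Against thymus it was 2.22 (SE 0.86, limma adjusted p = 0.18). Its width followed, at 6336 and 7014 bp in ILC2s against 4375 and 5278 bp in Th2 cells, 4965 and 2276 bp in the naive T pair, 2318 bp in spleen and 2364 bp in thymus. A further 2 regions were called in ILC2s and in no other list. At 45.3 kb upstream (25141380 to 25145110) ILC2s had 252.6 and 293.5 tags, and at 67.5 kb upstream (25163555 to 25166344) they had 130.7 and 116.5. Both were above the lowest heights listed in the other libraries (34.5 to 36.6 tags).

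Id3, the other inhibitor of E proteins, which is prominent in T cells, had no more peaks in ILC2s than in any other library. The gene spans chr4:136143822-136145392, on the plus strand. ILC2s had 1 and 1 peaks, against 1 and 1 in Th2 cells, 2 and 3 in the naive T pair, 3 in spleen and 4 in thymus (exact permutation p = 0.571 against T cells). The region over the gene had 270.6 and 236.5 tags in ILC2s, against 241.9 and 263.7 in Th2 cells, 290.5 and 590.3 in the naive T pair, 521.2 in spleen and 657.7 in thymus. ILC2s and Th2 cells overlapped at the low end, lavage naive T cells were just above them, and lymph node naive T cells, spleen and thymus were at the high end. After centring, ILC2s (0.38 and 0.13) lay below Th2 cells (0.65 and 0.71), lavage naive T cells (0.50) and all others. The difference from T cells was -0.59 (SE 0.19, limma adjusted p = 0.15). It was -0.68 without the lavage naive T library and -0.50 without the lymph node one. Against thymus it was -0.88 (SE 0.27, limma adjusted p = 0.11). Without centring it was -1.38 (limma adjusted p = 0.081). A region 42.2 kb upstream had no peak in ILC2s or Th2 cells, against 40.1 and 104 tags in naive T cells, 113.7 in spleen and 110.3 in thymus. Another, 7.89 kb upstream, was called only in lymph node naive T cells (109.7 tags), spleen (69.5) and thymus (151.3).

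Tcf3, an E protein gene at chr10:80409541-80433976 on the minus strand, had a single peak in every library, over its promoter. Its height was 177.6 and 201.9 tags in ILC2s, against 176.4 and 179.4 in Th2 cells, 247.8 and 302.7 in the naive T pair, 269 in spleen and 429.7 in thymus. In tags ILC2s overlapped Th2 cells and lay below naive T cells, spleen and thymus. After centring ILC2s (-0.22 and -0.10) lay below Th2 cells (0.19 and 0.16) as well. The difference from T cells was -0.32 (SE 0.12, limma adjusted p = 0.21). Against thymus it was -0.68 (SE 0.17, limma adjusted p = 0.068). Without centring it was -1.18 (limma adjusted p = 0.047).

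Tcf12, the other E protein gene (chr9:71844252-72111893, minus strand), had the lowest adjusted p of the 16 regions against thymus, at its promoter. Its promoter region (72104897 to 72113393) had 187.2 and 182.2 tags in ILC2s, against 150.9 and 157.5 in Th2 cells, 192.3 and 283.2 in the naive T pair, 222.8 in spleen and 1056 in thymus. ILC2s lay within the range of T cells in tags, and after centring at -0.15 and -0.25 against -0.15 to -0.01, with a difference of -0.12 (SE 0.11, limma adjusted p = 0.61), and thymus stood far above all others. The region was lower in ILC2s than in thymus by 2.01 (log2 difference -2.01, SE 0.16, limma adjusted p = 0.0036) and also narrower, at 3719 and 4058 bp in ILC2s against 8320 bp in thymus (log2 difference in width -1.10, SE 0.13, limma adjusted p = 0.014). Without the lavage or lymph node ILC2 library the difference was -2.065 and -1.961 in height, and -1.036 and -1.162 in width. The height call was lost without the lymph node ILC2 library. The width call was lost in both cases, but in those fits no region of any gene passed in width. Without centring the height difference was -2.52 (adjusted p = 0.0038), and per kb of peak -0.80 (adjusted p = 0.0088). The E-box printed above lies in this region, as do the 2 E-boxes of the Tcf12 window that is not printed.

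A further 3 regions of Tcf12 were higher in both ILC2 libraries than in every T cell library, or had no T cell peak. A region inside the gene next to the promoter (72096305 to 72102442) had 342.3 and 424 tags in ILC2s, against 203.2 and 182.8 in Th2 cells, 274.6 and 260.4 in the naive T pair, 221.4 in spleen and 782.2 in thymus. ILC2s were above all T cell libraries and below thymus. The difference from T cells was 0.75 (SE 0.19, limma adjusted p = 0.09), with adjusted p = 0.018 without the lavage naive T library and 0.042 without the lymph node one, and that from thymus was -0.53 (SE 0.28, limma adjusted p = 0.29) and -1.04 (adjusted p = 0.071) without centring. A region at 72074948 to 72076977, also in the gene, was called in ILC2s only, at 111 and 119.1 tags. A region 57.6 kb upstream was called in ILC2s at 55.7 and 50.8 tags and in thymus at 96.7, and in no T cell list. A further 4 regions of Tcf12 were called in thymus alone, with up to 115.6 tags.

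Nfil3 encodes a basic leucine zipper factor that acts at the start of the innate lymphoid path, at chr13:52967209-52982878 on the minus strand. ILC2s had 4 and 5 peaks, against 2 and 1 in Th2 cells, 4 and 1 in the naive T pair, 1 in spleen and 2 in thymus (exact permutation p = 0.19 against T cells). Its tallest region, over the promoter (52974695 to 52986892), had 921.6 and 931.2 tags in ILC2s, against 731.9 and 705.1 in Th2 cells, 838.4 and 504.2 in the naive T pair, 508.1 in spleen and 479.1 in thymus. ILC2s were above every other library, the lavage naive T library came next and thymus was lowest. The difference from T cells was 0.58 (SE 0.32, limma adjusted p = 0.38). It was 0.78 without the lavage naive T library and 0.38 without the lymph node one. After centring, its log2 height was 2.15 and 2.10 in ILC2s and 2.24 and 2.13 in Th2 cells, and with Th2 cells alone as the T cells the difference was -0.06 (limma adjusted p = 0.94). Against thymus it was 1.45 (SE 0.46, limma adjusted p = 0.12). Without centring it was 0.95 (limma adjusted p = 0.13). A smaller region inside the gene was called in ILC2s at 157.1 and 137.5 tags, in lavage naive T cells at 76.5, and in no other list.

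Zbtb16 encodes PLZF, a zinc finger factor that marks a precursor of innate lymphoid cells and natural killer T cells, at chr9:48651797-48836225. It had little of the mark anywhere, with 1 and 3 peaks in ILC2s, 0 and 0 in Th2 cells, 0 and 1 in the naive T pair, and 0 in spleen and thymus (exact permutation p = 0.19 against T cells). The region 48804505 to 48807558 within the gene was called in ILC2s only, at 66.9 and 120.9 tags. The remaining 3 regions were each called in a single list, at 39 to 58.7 tags, 2 of them in lymph node ILC2s and 1 in lymph node naive T cells.

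Tox encodes a high mobility group box factor needed for innate lymphoid cells and for CD4 T cell development, at chr4:6686353-6991557. ILC2s had 12 and 11 peaks, against 11 and 14 in Th2 cells, 9 and 11 in the naive T pair, 12 in spleen and 5 in thymus, but these peaks covered 61.6 and 61.4 kb in ILC2s, against 25.8 and 45.1 kb in Th2 cells, 28.6 and 29.7 kb in the naive T pair, 29.9 kb in spleen and 15.4 kb in thymus. ILC2s were above every other library in covered length.

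The widest ILC2 peaks at Tox lay in a domain of 22787 bp in the gene (6923867 to 6946654). It was a single peak in each ILC2 library, 22518 and 22742 bp wide, whereas the T cell libraries had 2 or 3 short peaks there with summed widths of 3836 to 10229 bp, and thymus had none. Its height was 1441 and 1526 tags in ILC2s, against 215 and 443.9 in Th2 cells, 191 and 221.4 in the naive T pair and 202.8 in spleen. The groups did not overlap, and the mean in ILC2s was 5.82 times that in T cells. Because thymus had no peak there, the region was tested in a fit without the thymus list over 11595 regions, chosen after the values were seen. In that fit 2 of 18 regions at the 10 genes were higher and 1 was lower in ILC2s, against 3.58% and 2.23% of all regions, and 1 was wider, against 4.01% of all. The domain was higher by 2.64 (SE 0.28, limma adjusted p = 0.01) and wider by 2.21 (SE 0.29, limma adjusted p = 0.02). Both calls were lost without the lavage ILC2 library (adjusted p = 0.12 for height and 0.19 for width) or the lymph node ILC2 library (0.14 and 0.21), and with Th2 cells alone as the T cells (0.052 and 0.056). Height per kb of peak differed by 0.55 on the log2 scale (limma adjusted p = 0.026).

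Other Tox regions varied in both directions. The region 6896513 to 6904877 had 461.4 and 510.3 tags in ILC2s, against 299.8 and 326 in Th2 cells, 292.6 and 384.3 in the naive T pair, 310.5 in spleen and 481.7 in thymus. ILC2s were above all T cells. Thymus lay between the ILC2 values in tags, and after centring below them (1.15 and 1.24 in ILC2s, 0.68 in thymus). It was higher in ILC2s than in T cells by 0.60 (SE 0.11, limma adjusted p = 0.041), with adjusted p = 0.021 without the lavage naive T library and 0.027 without the lymph node one. That call was lost without the lavage or lymph node ILC2 library (adjusted p = 0.32 and 0.41), without the lavage or lymph node Th2 library (0.096 and 0.094), and without centring (0.18). It was also lost with spleen left out of the T cells (difference 0.47, adjusted p = 0.084), with Th2 cells alone (0.21, 0.40) and as height per kb of peak (0.24, 0.35). The tallest region that all 8 lists shared, at the upper end of the gene (6975073 to 6992636), had 1261 and 1327 tags in ILC2s, against 486.9 and 780.1 in Th2 cells, 591.4 and 1148 in the naive T pair, 957.5 in spleen and 733.3 in thymus. ILC2s were highest, and the difference from T cells was 0.71 (SE 0.22, limma adjusted p = 0.14). Against thymus it was 1.32 (SE 0.32, limma adjusted p = 0.06). Without centring it was 0.82 (limma adjusted p = 0.20). ILC2s alone had peaks at 6869143 (76.6 and 74 tags), 6914506 (40.5 and 42) and 6963451 (39.7 and 43.4), the last 2 pairs close to the lowest listed heights. By contrast, the region at 6880418 to 6888503 had 131.1 and 141.5 tags in ILC2s, against 276.8 and 271.3 in Th2 cells and 346.9 in lavage naive T cells, while lymph node naive T cells, spleen and thymus had no peak.

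**Figure D3:**
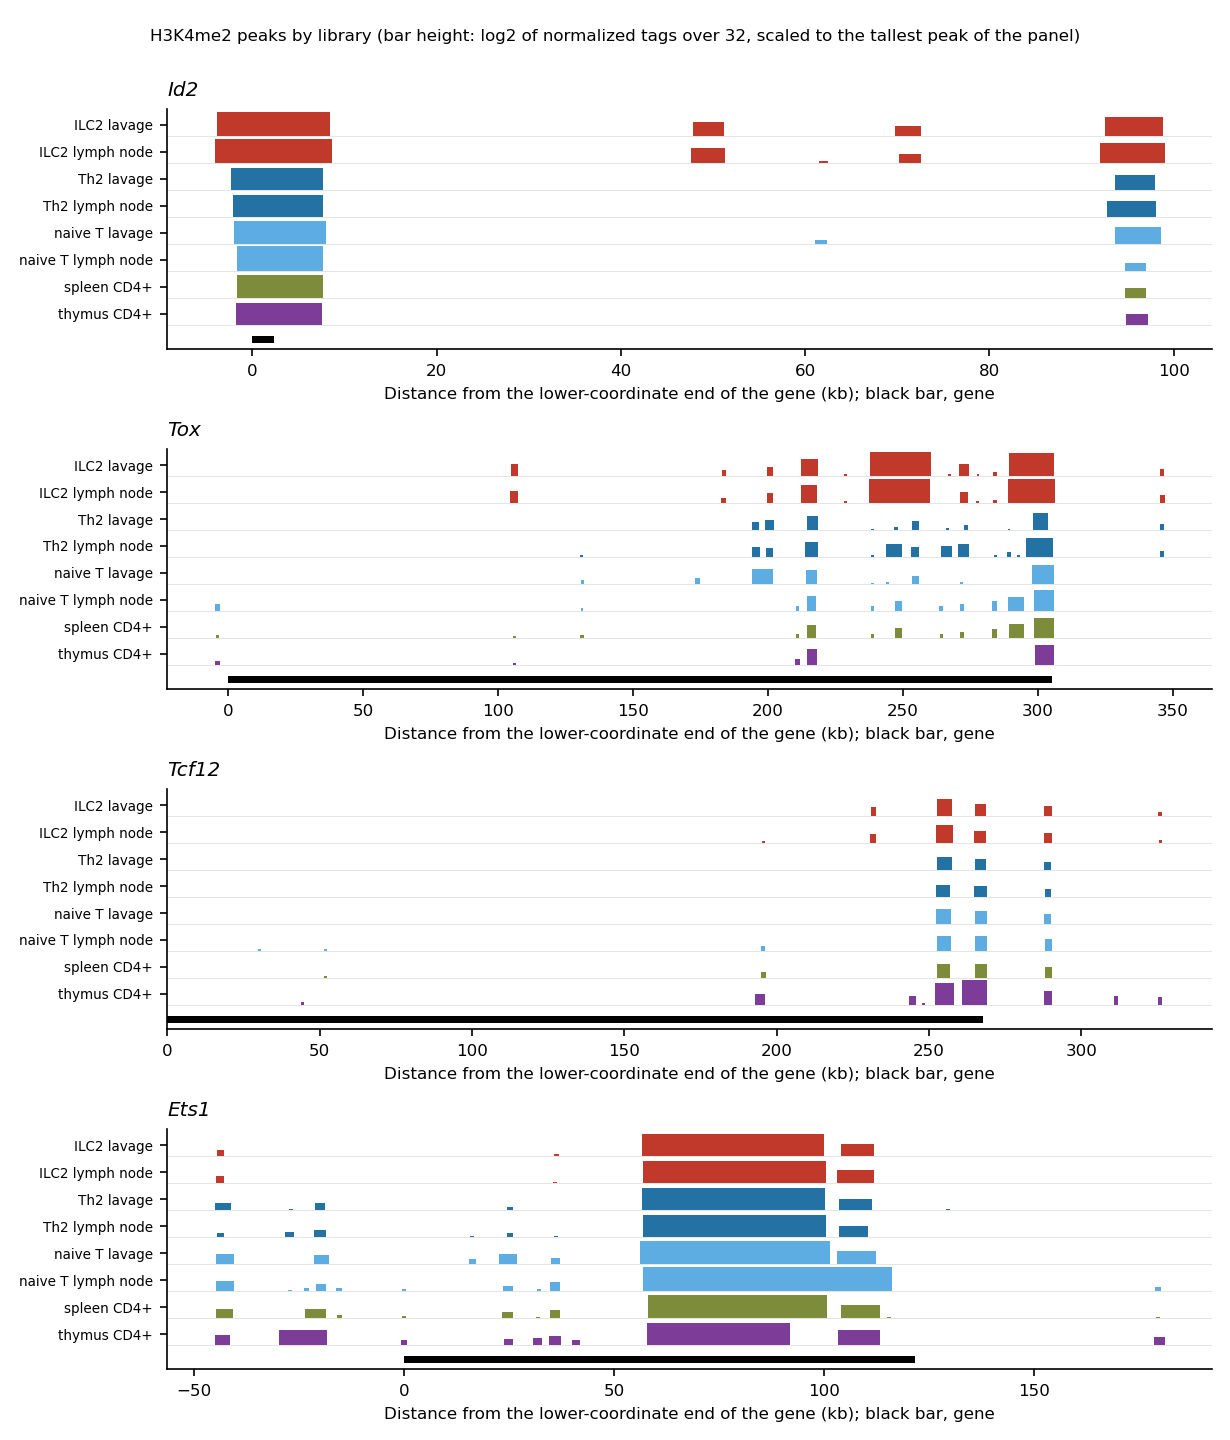
Peaks of each library at Id2, Tox, Tcf12 and Ets1, as bars over the distance in kb from the lower-coordinate end of the gene (black bar); bar height is log2 of normalized tags over 32, scaled within each panel. ILC2s alone have peaks 45.3 and 67.5 kb upstream of Id2, their Tox domain, 22518 and 22742 bp wide, is a row of short peaks in T cells, the Tcf12 promoter peak is tallest in thymus, and the Ets1 region 18 kb below the gene is missing in both ILC2 libraries.

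Gfi1 encodes a zinc finger repressor of lymphoid and myeloid cells that supports ILC2s, at chr5:107716655-107725805 on the minus strand. Its main region (107716587 to 107734600) covered the gene and its promoter. It had 1578 and 1746 tags in ILC2s, against 976.8 and 1045 in Th2 cells, 1021 and 937.2 in the naive T pair, 721.6 in spleen and 1465 in thymus. ILC2s were above all T cells and above thymus. The difference from T cells was 0.89 (SE 0.18, limma adjusted p = 0.053), with adjusted p = 0.0062 when the lavage naive T library was left out, 0.013 without the lymph node one and 0.038 without centring. It was 0.62 (adjusted p = 0.14) with spleen left out of the T cells, 0.29 (0.47) against Th2 cells alone and 0.22 (0.34) per kb of peak. Against thymus it was 0.68 (SE 0.27, limma adjusted p = 0.18). Without centring it was 0.18 (limma adjusted p = 0.63). The second region, 12.2 kb downstream (107697788 to 107704487), had 348.8 and 375.4 tags in ILC2s, against 137.2 and 108.6 in Th2 cells, 204.4 and 98.7 in the naive T pair, 84.4 in spleen and 405 in thymus. ILC2s were above all T cells and, in tags, just below thymus, but after centring above it (0.75 and 0.79 in ILC2s, 0.43 in thymus), with a mean in ILC2s of 2.86 times that in T cells. Its log2 difference from T cells was 1.67 (SE 0.41, limma adjusted p = 0.082), with adjusted p = 0.0036 when the lavage naive T library was left out, 0.0084 without the lymph node one and 0.015 without centring, and per kb of peak it was 0.15 (adjusted p = 0.52). From thymus it differed by 0.34 (SE 0.59, limma adjusted p = 0.75), and by -0.16 without centring. It was 6699 and 6637 bp wide in ILC2s, against 3032 and 2535 bp in Th2 cells, 3844 and 1505 bp in the naive T pair, 1503 bp in spleen and 5630 bp in thymus.

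Bcl11b encodes a zinc finger factor required for T cell commitment and for ILC2 identity, at chr12:107910403-108004145 on the minus strand. The region 107917981 to 107938932, inside the gene towards its 3′ end, had 649.8 and 713.1 tags in ILC2s, against 975.6 and 990.7 in Th2 cells, 1258 and 1717 in the naive T pair, 1211 in spleen and 1400 in thymus. The groups did not overlap, and the mean in ILC2s was 0.554 times that in T cells. It was lower in ILC2s than in T cells (log2 difference -0.83, SE 0.11, limma adjusted p = 0.015), with adjusted p = 0.0089 without the lavage naive T library and 0.012 without the lymph node one. The call was lost without the lavage or lymph node ILC2 library (adjusted p = 0.21 and 0.20), the lavage or lymph node Th2 library (0.052 each) and centring (0.071), and as height per kb of peak (difference -0.49, adjusted p = 0.13). Against thymus the difference was -0.54 (SE 0.16, limma adjusted p = 0.096), and -1.04 (adjusted p = 0.081) without centring. The region over the 5′ part of the gene and the promoter printed above (107957890 to 108007401) was among the widest at these genes, at 37112 and 35915 bp in ILC2s against 39138 to 49122 bp in T cells and 28255 bp in thymus. Its height was 3043 and 3068 tags in ILC2s, against 3091 and 2855 in Th2 cells, 4041 and 5281 in the naive T pair, 3945 in spleen and 2982 in thymus. In tags ILC2s lay within the range of Th2 cells and just above thymus, while after centring ILC2s (3.88 and 3.82) lay below Th2 cells (4.32 and 4.15). From T cells it differed by -0.31 (SE 0.12, limma adjusted p = 0.21). From thymus it differed by 0.54 (SE 0.17, limma adjusted p = 0.11), and by 0.04 (adjusted p = 0.93) without centring. Between these regions, 107947760 to 107956244 had 52.9 tags in lavage ILC2s and no peak in lymph node ILC2s, against 79.8 and 89.3 in Th2 cells, 109.1 and 525.7 in the naive T pair, 289.5 in spleen and no peak in thymus.

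Ets1 encodes the founding member of the Ets family, abundant in lymphocytes and needed for ILC2 expansion in mice, at chr9:32636241-32757820. Fewer peaks in ILC2s stood beside a shared main domain. That domain (32692322 to 32752488) was the tallest and, at 60166 bp, the longest region at the 10 genes, with 5002 and 5439 tags in ILC2s, against 4867 and 4729 in Th2 cells, 6102 and 7614 in the naive T pair, 5818 in spleen and 5617 in thymus. ILC2s lay within the range of T cells (log2 difference -0.15, SE 0.12, limma adjusted p = 0.55). Against thymus the difference was 0.40 (SE 0.17, limma adjusted p = 0.21) and -0.11 (adjusted p = 0.79) without centring. The 2 regions that every T cell list had and ILC2s lacked were both at Ets1. A region 18 kb below the gene interval (32606522 to 32618269) had no peak in ILC2s, against 178.9 and 264.6 tags in Th2 cells, 226.9 and 260.4 in the naive T pair, 218.2 in spleen and 948.7 in thymus. A region within the gene (32658874 to 32663196) had none in ILC2s, against 54.9 and 75 in Th2 cells, 318.1 and 98.7 in the naive T pair, 117.9 in spleen and 107.2 in thymus. A region 40.4 kb below the gene had 117.5 and 138.4 tags in ILC2s, against 161.5 and 72.4 in Th2 cells, 286.7 and 293.3 in the naive T pair, 259.6 in spleen and 290 in thymus. ILC2s overlapped Th2 cells there and lay below the others, with a difference from T cells of -0.66 (SE 0.34, limma adjusted p = 0.35). Its log2 difference in width was -0.89 (limma adjusted p = 0.25), and -1.11 (SE 0.09, limma adjusted p = 0.029) when the lymph node Th2 library was left out, against -0.67 (adjusted p = 0.058) when the lavage one was. Per kb of peak its height difference was 0.34 (adjusted p = 0.29).

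**Figure D4:**
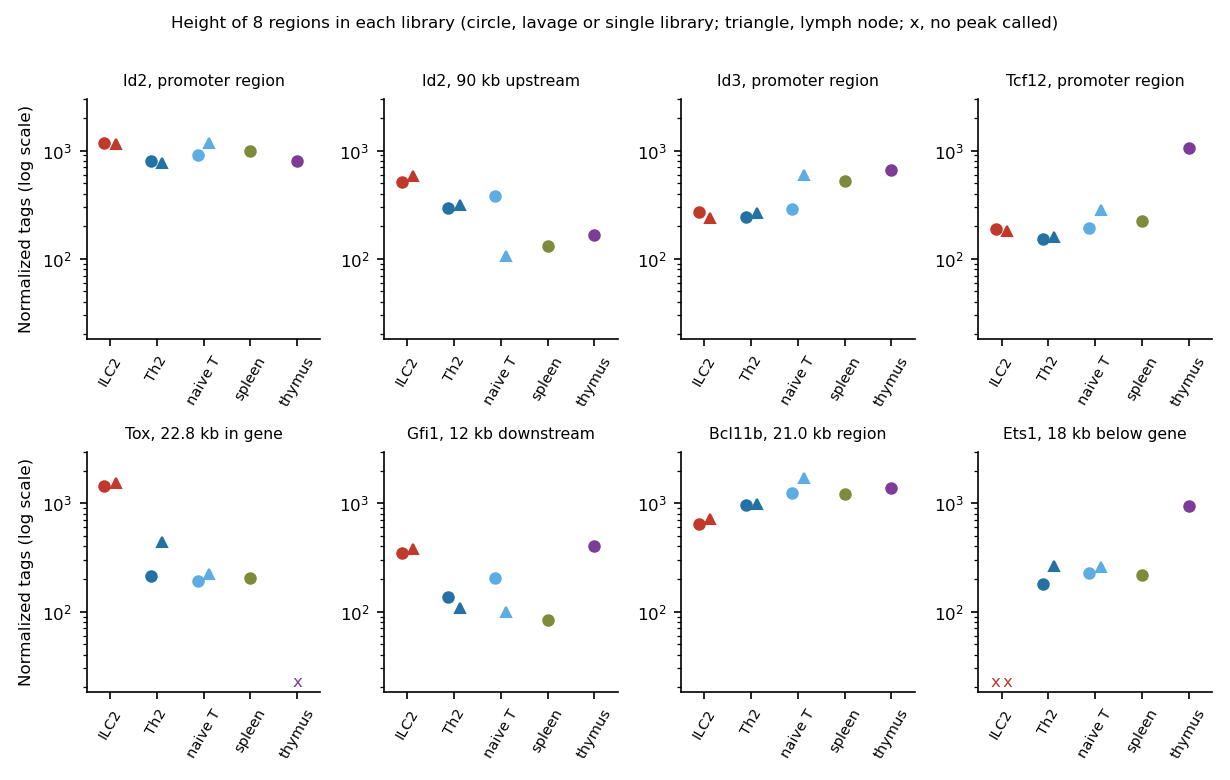
Peak height in normalized tags (log scale) at 8 regions in each library, with circles for lavage or single libraries, triangles for lymph node libraries and x where no peak was called. The Tox domain is at 1441 and 1526 tags in ILC2s against at most 443.9 in T cells, and the Tcf12 promoter is at 187.2 and 182.2 tags in ILC2s against 1056 in thymus.

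In width, none of the 16 regions called in all 8 lists was wider or narrower in ILC2s than in T cells by limma at an adjusted p of 0.05, where 3.71% and 1.47% of all regions were, and 6 of the 16 had an unadjusted p under 0.05 (5 wider, 1 narrower) against 21.1% of all regions. The smallest adjusted p was 0.077, at the Id2 promoter region, which was 12220 and 12678 bp wide in ILC2s, against 10008 and 9768 bp in Th2 cells, 10062 and 9352 bp in the naive T pair, 9266 bp in spleen and 9285 bp in thymus. ILC2s were widest there. With the lavage naive T library left out, 5 regions were wider in ILC2s (both Id2 regions, Nfil3 and both Gfi1 regions; 8.34% of all regions), and with the lymph node one left out 3 were (the distant Id2 region and both Gfi1 regions; 6.11% of all). In neither case was any narrower than in T cells (2.87% and 2.0% of all regions). Against thymus no region was wider, where 5.74% of all regions were, and 1 was narrower (the Tcf12 promoter), where 1.67% of all were. Without the lavage naive T list 2 regions were wider than in thymus, the distant Id2 region and Nfil3, and 1 was narrower (10.3% and 3.0% of all), and without the lymph node list the counts were 2 and 1 (10.4% and 3.06%).

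Other factor genes of early lymphoid cells, a list of 25 such as Gata3, Rora, Runx1, Ikzf1, Notch1 and Lef1, had 47 regions in the fit. In height 8 of them were higher and 5 lower in ILC2s than in T cells, with a median log2 difference of 0.13, against 3.56% and 2.31% of all regions. The higher ones were at Notch2 (2.96, limma adjusted p = 0.0015), Ikzf1 (2.55, 0.0029), Zeb2 (2 regions), Rora, Runx1, Gata3 and Fli1, and the lower ones at Zbtb7b (-1.22, 0.023), Notch1 (-1.09, 0.013), Lef1 (2 regions) and Klf2. Against thymus 12 were higher and 3 lower (Myb, Notch1 and Lef1), where 7.81% and 2.36% of all regions were. In the paralogues of the 10 genes, 10 regions were tested and 1, at Tox2, was higher in ILC2s than in T cells (0.63, limma adjusted p = 0.045). Against thymus Tox2 was higher (1.02, limma adjusted p = 0.023) and Ets2 lower (-2.64, limma adjusted p = 0.0077).

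The genes whose tallest shared region varied most like that of a member were named by the Pearson correlation of centred heights over the 8 libraries, among 8950 genes. For Id2 they were Nsd3 (0.994) and Dock8 (0.991), for Id3 Rps16 (0.986) and Ahdc1 (0.984), and for Tcf3 Arl5c (0.972) and Atf7 (0.971). For Tcf12 they were Cenph (0.98) and Parpbp (0.961), for Nfil3 Runx2 and Atf6 (0.996 each), and for Tox Nnmt (0.969) and Hspd1 (0.957). For Gfi1 they were Septin2 and Gpcpd1 (0.979 each), for Bcl11b Peli1 (0.986) and Zdhhc18 (0.983), and for Ets1 Grap2 (0.987) and Arpc2 (0.982). Zbtb16 had no region called in all 8 lists to compare. These correlations are a description over libraries that share depth and cell type, and with so many genes compared high values occur for every gene named here.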

How the data were processed

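H3K4me2 chromatin immunoprecipitation libraries of 8 samples were analysed as the peak lists deposited by the authors; the 2 IgG samples served only as the background of the authors' peak finder, and the labels give them the H3K4me2 antibody. The submitters' processing notes name Bowtie, HOMER and mm10, with no versions. Per the file headers, HOMER findPeaks was run on each library with an initial peak size of 1000 bp, a minimum distance of 2500 bp, a false discovery rate of 0.001, at least 4-fold more tags than IgG and a minimum of 48 to 100 tags set for each library. At that minimum the counting error of a peak was 10% to 14.4%, for counting error only. The deposited signal of a peak is a normalized tag count per 10000000 tags. The depth of the libraries was 11870820 to 24945548 total tags per the file headers.

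Peaks were merged across lists within 500 bp and assigned to the nearest RefSeq protein-coding gene interval (GRCm38.p6, the assembly of mm10) within 100 kb. Height is log2 of the summed tags, centred on the library's median over regions called in all 8 lists, with no pseudocount. Width is log2 of the summed length. Both were fitted with limma 3.58.1 in R 4.3.3 over 5 groups and 8 libraries (3 residual degrees of freedom), with Benjamini-Hochberg adjustment over all regions tested and a threshold of 0.05, and the fit was tested on simulated data. The T cell contrast took the mean of the Th2, naive T and spleen groups, and the thymus library, without a replicate, was assumed to vary like the groups with 2. Region counts used presence in the lists, and peak numbers an exact permutation test in Python 3.11.15 with scipy 1.17.1. Regions were named if tallest for their gene, if they passed a test, or if called in ILC2s alone or T cells alone, up to 2 or 3 per gene, and further regions were named after their values were seen. The genes and lists were chosen with earlier results of these data known. Alternatives changed the merging, threshold, gene distance, T cell groups, scaling and centring, or added a replicate block. Others left out each ILC2, Th2 and naive T library in turn, or the thymus list. RefSeq promoter windows on mm10 coordinates gave the sequences, and strand was taken from the same table where it had an entry.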

Additional observations from a re-analysis of the deposited data

How the results depend on the processing

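Counts of regions at the 10 genes moved as follows, each with the share of all regions (or genes) in parentheses. With peaks of at least 80 tags, 46 regions were left and 14 of them were called in all 8 lists. Of the 46, 5 were called only in ILC2s against T cells (7.53%), 1 only in T cells (0.612%) and 9 in ILC2s and not in thymus (14.5%). Of the 14, 2 were higher than T cells (4.2%), 2 higher than thymus (8.05%), 2 lower than thymus (2.87%) and 1 wider than T cells (3.89%). In this setting 3 genes had more peaks in ILC2s (8.08%). With equal numbers of peaks per library, 45 regions were left and 14 of them were called in all 8 lists. Of the 45, 4 were called only in ILC2s (4.83%) and 9 in ILC2s and not in thymus (13.9%). Of the 14, 1 was wider than T cells (3.74%), and 2 genes had more peaks (4.98%). With genes within 10 kb, 5 of 48 were called only in ILC2s (8.97% of all regions at any distance), 1 only in T cells (0.685%), and 0 genes had more peaks (9.22%). With naive T cells alone 4 were called only in T cells (2.68%), and with naive T and Th2 cells (3.0%), or Th2 cells alone (2.58%), 0 were higher in ILC2s in limma. With the tallest peak of a region 3 were higher than T cells (3.4%) and 2 higher than thymus (6.98%). Without centring 2 were higher (3.28%) and 0 lower (1.7%) than T cells, and 0 higher (4.12%) and 2 lower (3.36%) than thymus. With tags per kb 0 were higher (1.25%) and 0 lower (0.716%) than T cells. Without the thymus list (added after seeing the data) 2 were higher (3.58%) and 1 wider (4.01%) than T cells, and with merging only of overlapping peaks 1 was wider (3.73%). The main fit of all libraries is not among the settings that gave 0 here. In height it had 10 of the 16 regions at an unadjusted limma p under 0.05 against T cells (21.1%) and 11 against thymus (26.0%).

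Among the regions tallest for their gene or passing a test, differences changed sign at Nfil3 against Th2 cells alone (-0.0598). Against thymus they did so at Bcl11b 107957890 with the tallest peak (-0.11) and at Ets1 32692322 without centring (-0.11). Per kb against T cells they did so at Tcf12 72104897 (6.01e-05), Bcl11b 107957890 (0.0456) and Ets1 32692322 (0.00993). Outside those regions, Ets1 32591153 changed sign per kb (0.34 against T cells and 0.41 against thymus). Gfi1 107697788 did so against thymus without centring (-0.16). None of these was a call, and the causes were not tested. Leaving out each library in turn gave 8 to 11 regions called only in ILC2s (9.3% to 12.1%) and 2 to 3 only in T cells (0.733% to 0.918%), 18 to 19 called in ILC2s and not in thymus (20.9% to 21.1%), 15 to 17 in thymus and not in ILC2s (18.2%), 0 to 6 higher (0.0361% to 10.4%) and 0 to 2 lower than T cells (0.126% to 6.03%), 0 to 5 higher (0.596% to 15.2%) and 0 to 3 lower than thymus (0.172% to 6.11%), 0 to 5 wider (0% to 8.34%) and 0 to 1 narrower than T cells (0% to 2.87%), 0 to 2 wider (0% to 10.4%) and 0 to 2 narrower than thymus (0% to 3.06%), and 1 to 3 genes with more peaks (10.7% to 13.4%). The replicate number marks the site. Deviations of lavage from lymph node correlated at 0.253 between ILC2s and Th2 cells, -0.03 between ILC2s and naive T cells and 0.08 between Th2 and naive T cells across 11038 regions, so the numbers were not taken to pair the samples. With the replicate block as a site term, 0 regions were higher than T cells (3.03%; Tox 6896513 at an adjusted p of 0.071) and 2 higher than thymus (7.97%). Th2 libraries, with the fewest tags and peaks, limit what absence from a list means.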

Other observations

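Beyond the 100 kb limit, the stretch upstream of Id2 held 20 further regions whose nearest protein-coding gene was Id2, between 111.9 and 358.4 kb from it. They were outside the rule for the 10 genes and were looked at after the values were seen, so they are given without a test. ILC2s had 20 and 20 peaks there, against 6 and 6 in Th2 cells, 9 and 2 in the naive T pair, 3 in spleen and 5 in thymus. Both ILC2 libraries lay above every other library. The tallest of these regions, 141.7 kb upstream (chr12:25237823-25245122), had 567.6 and 640.8 tags in ILC2s, against 175.2 and 117.9 in Th2 cells, 198.9 in naive T cells of the lavage, 42 in thymus and no peak in lymph node naive T cells or spleen. A region 127.4 kb upstream (chr12:25223496-25228917) had 344.4 and 380.2 tags in ILC2s and no peak in any other list. The first region past the limit, at 111.9 kb, had 89.8 and 119.1 tags in ILC2s and no peak elsewhere, while the last region within it, at 89.7 kb, was called in all 8 lists.

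The other genes with regions past the limit showed no such excess in peak number. Single regions called in ILC2s alone did occur, at Ets1 (chr9:32881239-32884865, 217.3 and 281.6 tags) and at Tox (chr4:7205961-7208001, 66.5 and 94.2 tags). Regions called in other lists and in neither ILC2 list occurred at Ets1, Tox and Bcl11b. At Bcl11b 9 regions gave 3 and 4 peaks in ILC2s, against 2 and 3 in Th2 cells, 3 and 5 in the naive T pair, 6 in spleen and 7 in thymus, and ILC2s overlapped T cells. At Tox 6 regions gave 3 and 2 peaks in ILC2s, against 0 and 1 in Th2 cells, 1 and 3 in the naive T pair, 2 in spleen and 4 in thymus. At Ets1 12 regions gave 11 and 11 peaks in ILC2s, against 11 and 9 in Th2 cells, 9 and 6 in the naive T pair, 8 in spleen and 4 in thymus, so that ILC2s, which had the fewest peaks within 100 kb of Ets1, were level with the highest T cell library beyond it.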
